A study of Mus musculus with 2 samples.

Results

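The cells described here are 60 hippocampal cells that carried transcripts of brain mural cells, out of 15930 cells in 2 single-cell libraries. A cell was a member when at least 3 of 10 genes (Pdgfrb, Rgs5, Vtn, Abcc9, Kcnj8, Higd1b, Atp13a5, Acta2, Myh11 and Tagln) had a value of at least 2, while the fibroblast genes Dcn and Slc6a13 were both below 2. The wild-type library gave 23 members among 7094 cells, and the knock-in library gave 37 among 8836. The first group was wild type for Pigv, and the other was homozygous for the knock-in allele Pigv341E, which was made with CRISPR-Cas9. Both groups were on the C57Bl.6/J strain, and the labels name no treatment, age or sex. For each genotype, 8 hippocampi of 4 mice were dissociated by mechanical means at low temperature and combined into 1 pool and 1 droplet library, and the pools shared a sequencing lane. A difference between the libraries therefore has no replicate behind it, and genotype, pool and library cannot be told apart.

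Mural cells wrap the blood vessels of the brain. Pericytes sit within the basement membrane of capillaries and need PDGF-B from endothelial cells, received through PDGFRβ, to settle there, and they are known for their part in the blood-brain barrier and in capillary flow. Smooth muscle cells ring arterioles and are defined by a contractile apparatus of smooth muscle actin (Acta2), smooth muscle myosin (Myh11) and transgelin (Tagln). Pigv encodes an enzyme that adds a mannose to the glycolipid anchor, called GPI, by which many surface proteins are attached to the membrane, and the title of the study names Eph and Abl1 signalling as its interest.

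Values are depth-corrected whole numbers as deposited, not molecules counted. A level is the sum of a gene over a set of cells divided by the sum of all their values, times 10000. Totals per member lay between 7086 and 10321 in the wild-type library and between 7151 and 12824 in the knock-in library. Detected genes per member had medians of 2373 and 2400, which were 2012 and 2052 after each member was thinned to a total of 5000, against medians of 3171 and 3797 in all other cells. Members with 3000 or more detected genes numbered 2 in wild type and 8 in knock-in. The libraries shared 28 cell barcodes, and 0 of them belonged to members.

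Of the smooth muscle markers, some were at 0 in every member and others were found in a minority. Acta2 and Tagln were at 0 in all 60 members, and so was Cnn1, the gene of calponin. Myh11 reached a value of 2 in 2 wild-type and 3 knock-in members, with highest values of 3 and 4. No member had 2 of Acta2, Myh11 and Tagln at 2 or more. A count of 0 among 60 members allows a share of up to 5%, and 0 of 23 and 0 of 37 allow up to 13.04% and 8.11%, for counting error only. Of the other smooth muscle markers, Tpm2 (tropomyosin) was above 0 in 1 member, the intermediate filament gene Des was at 2 or more in 4, Lmod1 in 1, the myosin light chain kinase gene Mylk in 13 and the light chain gene Myl9 in 14. The members are called pericyte-like below. In the whole table, only 7 cells had Acta2 at 2 or more, 7 had Tagln and 17 had Myh11.

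The share of pericyte-like cells was 0.324% in wild type (exact Clopper-Pearson 95% interval 0.206 to 0.486%) and 0.419% in knock-in (0.295 to 0.577%). The intervals overlapped, but they cover counting error only. With 1 library per genotype, a difference in share was not tested. Cells with at least 3 of 12 endothelial markers at 2 or more, the endothelial-rule cells, numbered 30 and 49, and fibroblast-rule cells, chosen likewise from fibroblast markers, numbered 111 and 264. Each of these classes was formed after the members had been set aside.

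Because the members were chosen on them, the genes of the rule are given as a description. Most members were well above the limit: 5 members had exactly 3 rule genes at 2 or more, 13 had 4, 26 had 5, 12 had 6, 3 had 7 and 1 had 8.

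Pdgfrb (chromosome 18, 61045150 to 61085061, plus strand; GENCODE positions on GRCm38 throughout), the receptor through which pericytes are recruited, had a lowest, median and highest value of 0, 8 and 16 in wild-type and 1, 6 and 16 in knock-in members. It was at 2 or more in 20 of 23 and 36 of 37 members, and the ranges of the libraries overlapped almost entirely. The pooled levels per 10000 were 9.46 (wild type) and 8.59 (knock-in). Rgs5 (chromosome 1, 169655501 to 169695813, plus strand), a regulator of G protein signalling used as a classical pericyte marker, ran from 0 through a median of 4 to 8 in wild-type and from 0 through 3 to 54 in knock-in members. It was at 2 or more in 20 of 23 wild-type members (87.0%, exact interval 66.4 to 97.2%) and 21 of 37 knock-in members (56.8%, 39.5 to 72.9%). These intervals overlapped, but they cover counting error only, and a difference was not tested. Above 0 after thinning were 87.0% and 67.6% of members (91.3% and 78.4% before thinning). The single value of 54 came from a knock-in member that also carried endothelial markers.

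Vtn (chromosome 11, 78499091 to 78502324, plus strand) encodes vitronectin, a secreted adhesion protein that pericytes deposit at the vessel wall. Its values were 7, 26 and 93 (lowest, median, highest) in wild-type and 0, 30 and 72 in knock-in members, and it was at 2 or more in all 23 and in 35 of 37. Atp13a5 (chromosome 16, 29231851 to 29378732, minus strand), a P-type transport ATPase gene known as a brain pericyte marker, had values of 8, 28 and 63 in wild-type and 0, 21 and 45 in knock-in members. Its pooled level was 34.6 and 24.4 per 10000. For both genes the ranges of the libraries overlapped widely, but the lowest and the highest value were each lower in knock-in members.

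Abcc9 (chromosome 6, 142587862 to 142702315, minus strand) and Kcnj8 (chromosome 6, 142564837 to 142571614, minus strand) encode the regulatory and the pore subunit of an ATP-sensitive potassium channel. Abcc9 had values of 0, 3 and 24 in wild-type and 0, 5 and 20 in knock-in members. Kcnj8 had values of 0, 1 and 8, and 0, 1 and 10. Kcnj8 was at 2 or more in 25 members and Abcc9 in 45, and 22 members had both. As both genes are in the rule, this overlap is a description only. Across the 60 members, whose values were all corrected for depth and come from only 2 libraries, the Pearson r of their log values was 0.44. Vtn and Atp13a5 had an r of 0.69, and Pdgfrb and Rgs5 one of -0.06. Higd1b was at 2 or more in 4 wild-type and 6 knock-in members only. The per-cell plot of the 10 rule genes shows these values.

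**Figure D1:**
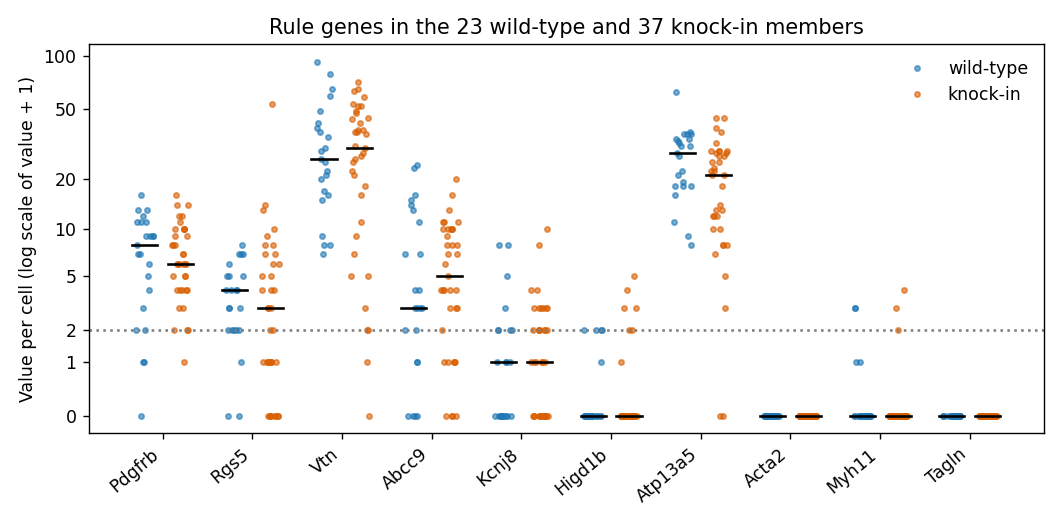
Depth-corrected value of each rule gene in each member (vertical axis on a log scale of the value plus 1), for the 23 wild-type members (blue) and the 37 knock-in members (orange); black bars are medians and the dotted line marks the limit of 2. Vtn and Atp13a5 lie well above the limit in nearly all members, while Acta2 and Tagln are at 0 in all 60.

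The sequences before the start sites of 3 of these genes are shown because Vtn was at 2 or more in 58 of the 60 members and because Abcc9 and Kcnj8 encode the subunits of 1 channel. They are RefSeq windows on GRCm38.p6 of the 250 bases before the start site, 5′ to 3′ on the gene's strand: Vtn at chr11:78498870-78499119 (plus strand), Abcc9 at chr6:142702275-142702524 (minus strand) and Kcnj8 at chr6:142571615-142571864 (minus strand). The start sites are those of RefSeq. For Vtn and Abcc9 the GENCODE gene given above begins further upstream, so the end of each window lies inside it. The E-box match of Abcc9 lies in that part. Capitals mark matches, on either strand, to TATAAA, to GGGCGG and to the E-box CANNTG. In Vtn the longer capital run is an overlapping pair of TATAAA matches, which begin 137 and 135 bases before the start.
Vtn: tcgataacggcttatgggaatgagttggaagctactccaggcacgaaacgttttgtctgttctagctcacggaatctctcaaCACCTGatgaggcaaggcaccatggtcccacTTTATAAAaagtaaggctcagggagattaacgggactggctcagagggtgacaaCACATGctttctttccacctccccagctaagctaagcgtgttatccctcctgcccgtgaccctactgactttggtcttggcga
Abcc9: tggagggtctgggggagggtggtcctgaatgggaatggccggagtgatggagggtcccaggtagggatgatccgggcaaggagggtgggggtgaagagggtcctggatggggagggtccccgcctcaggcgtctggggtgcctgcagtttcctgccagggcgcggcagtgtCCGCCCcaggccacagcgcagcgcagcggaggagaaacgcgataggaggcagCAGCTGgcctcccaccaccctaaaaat
Kcnj8: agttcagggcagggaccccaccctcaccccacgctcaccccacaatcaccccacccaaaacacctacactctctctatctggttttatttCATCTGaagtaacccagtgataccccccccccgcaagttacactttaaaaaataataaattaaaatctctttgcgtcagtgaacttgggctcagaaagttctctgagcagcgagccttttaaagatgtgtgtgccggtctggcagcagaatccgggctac
Among all 32851 RefSeq windows of this length, TATAAA was in 12.4%, GGGCGG in 32.7% and CANNTG in 66.2%. Vtn held 2 E-box matches and no GGGCGG, Abcc9 held 1 of each and no TATAAA, and Kcnj8 held 1 E-box match alone. Of the 10 rule genes, RefSeq windows of 6 were searched (Vtn, Atp13a5, Abcc9, Kcnj8, Rgs5 and Acta2). The CArG box was searched only in its strict form, which is CC, then 6 bases that are each A or T, then GG. None of the 6 held this form (in 1.47% of all windows) or the RBPJ motif GTGGGAA (5.42%), both searched on both strands. That says only that these letters are not in these windows. Forms of the CArG box with other bases in its core were not searched.

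Beside the 60 members, 36 cells lay just below the limit, with 2 rule genes at 2 or more. The 5 members with exactly 3 rule genes had Notch3 at 6.20, Ebf1 at 16.5 and Tbx3os1 at 7.70 per 10000. The 36 cells had Notch3 at 0.328, Ebf1 at 4.49 and Tbx3os1 at 0.590. A further 18 cells, 5 wild-type and 13 knock-in, met the positive side of the rule and were kept out by Dcn or Slc6a13. Those cells had Vtn at 36.3 and Atp13a5 at 27.7 per 10000, beside Slc6a13 at 4.63 and the amino acid transporter gene Slc6a20a at 18.7.

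Genes outside the rule were described next, by level in the members, in endothelial-rule cells, in fibroblast-rule cells and in all other cells. The cells were picked by genes measured in the same cells, so no test was made. Of 25 further genes listed as pericyte genes, 17 reached 1 per 10000 in the members, all 17 were at least 2-fold above all other cells, and 13 were at least 2-fold above each other class. Over all 30223 genes the same counts were 2020, 376 and 170. Some of the listed genes also stand in the lists below.

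The receptor genes Notch3 and Cspg4 accompanied Pdgfrb. Notch3, the Notch receptor of mural cells, was at 2 or more in 55 of 60 members, and at 8.12 and 8.85 per 10000 in wild-type and knock-in members. This was 142-fold the level of all other cells, 179-fold that of endothelial-rule cells and 69.1-fold that of fibroblast-rule cells. The Notch3 level in endothelial-rule cells was near 0, so the size of the 179-fold ratio is uncertain. Cspg4 (NG2), a proteoglycan of pericytes and of oligodendrocyte precursors, was at 3.97 and 2.59 per 10000 and at 2 or more in 35 of 60 members. Among all other cells 2.80% had Cspg4 at 2 or more. Art3, a GPI-anchored surface protein gene, was at 2.57 and 2.55 per 10000 and was listed at 0 in endothelial-rule cells. Each of these had a median of 1 or more in both libraries' members.

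Noncoding RNAs were among the genes furthest above other cells. Tbx3os1, which lies antisense to the transcription factor gene Tbx3, was at 2 or more in 56 of 60 members and at 11.6 and 9.58 per 10000, 470-fold the level of all other cells. Whether strand was used in counting is not given in the sources used here, so reads of Tbx3 and Tbx3os1 may not be separable. Carmn, the host RNA of the smooth muscle microRNAs miR-143 and miR-145, was at 2 or more in 51 of 60 members, at 6.77 and 4.71 per 10000. Bvht was at 3.92 and 3.85, and Gm14005 at 6.55 and 4.94. Carmn thus reached a value of 2 in most members while Acta2 and Tagln were at 0.

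Channels and pumps of membrane potential and calcium formed a broad group. Ano1, a calcium-activated chloride channel known from contractile mural cells, was at 4.81 and 4.61 per 10000, 113-fold other cells, and at 2 or more in 44 of 60 members. Cacna1c, the pore of the L-type calcium channel, was at 20.8 and 18.4 per 10000 and 2.74-fold above all other cells, of which 72.0% had it at 2 or more. Of 29 listed channel and pump genes, 20 reached 1 per 10000, 10 of these were 2-fold above all other cells and 8 were 2-fold above each class.

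Transcripts of genes of cyclic nucleotide signalling and of vessel tone were found. Prkg1, cGMP-dependent protein kinase, was at 2 or more in all 60 members, with values of 18, 32 and 69 in wild-type and 10, 25 and 129 in knock-in members. The subunits of the nitric oxide receptor guanylyl cyclase were at 10.7 and 9.48 (Gucy1a2), 3.64 and 3.65 (Gucy1b1) and 2.46 and 1.89 per 10000 (Gucy1a1). Gucy1b1 was 29.4-fold above fibroblast-rule and 19.0-fold above endothelial-rule cells. Pde8b, a cAMP phosphodiesterase, had values of 15, 38 and 67 in wild-type and 0, 29 and 77 in knock-in members, and its level was 13.1-fold that of all other cells. Arhgap42, a GTPase-activating protein known to restrain smooth muscle tone, was at 11.9 and 9.51 per 10000, 24.7-fold other cells. Of 37 listed genes of vasoactive signalling in the table, 21 reached 1 per 10000 and 14 of these were 2-fold above all other cells.

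Contraction itself was represented by a few genes. Cald1, caldesmon, which binds actin and tropomyosin, was at 18.8 and 14.9 per 10000, 19.7-fold the other cells and 7.63-fold the endothelial-rule cells. Myl9 was at 1.01 and 1.09 per 10000 with a median of 0 in both libraries. Of 25 contractile genes, 6 reached 1 per 10000 in the members.

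Basement membrane genes followed Vtn. Lama2, a laminin chain, was at 11.5 and 7.26 per 10000, 6.21-fold all other cells but 1.03-fold fibroblast-rule cells, so it did not set the pericyte-like cells apart from fibroblasts. Nid1 (nidogen) was at 2.63 and 2.85 per 10000, 192-fold all other cells and 2.82-fold fibroblast-rule cells. The collagen and laminin receptor subunit Itga1 was at 8.00 and 6.76. Of 40 listed matrix genes, 14 reached 1 per 10000 and all 14 were 2-fold above all other cells, but 5 were 2-fold above each class.

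The transporter genes differed in how they separated the vessel-associated classes. Slc38a11, an amino acid transporter gene, was at 9.74 and 7.19 per 10000, 831-fold the fibroblast-rule cells and 56.7-fold the endothelial-rule cells, and at 2 or more in 50 of 60 members. Its level in fibroblast-rule cells was near 0, so the size of the 831-fold ratio is uncertain. Slc6a20a was at 10.6 and 6.60 but 0.585-fold the fibroblast-rule cells, in which 76.5% had it at 2 or more. The folate carrier gene Slc19a1 was at 2.02 and 1.69 per 10000 and listed at 0 in endothelial-rule cells. Slc16a12, a monocarboxylate transporter gene, was at 2.52 and 2.69.

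Among regulators, Ebf1, a transcription factor of mesenchymal and B-lineage cells, was at 2 or more in all 60 members, with values of 5, 20 and 47 in wild-type and 2, 16 and 50 in knock-in members. Its level was 160-fold other cells but 1.79-fold endothelial-rule cells. Tbx2 was at 1.57 and 1.29 per 10000, 173-fold other cells, and listed at 0 in endothelial-rule cells. Rbpms, an RNA-binding splicing regulator of smooth muscle, was at 12.5 and 7.43 per 10000 and 2.80-fold endothelial-rule cells. Of 15 listed transcription factor genes at 1 per 10000 or more, 7 were 2-fold above all other cells and 2 above each class.

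**Figure D2:**
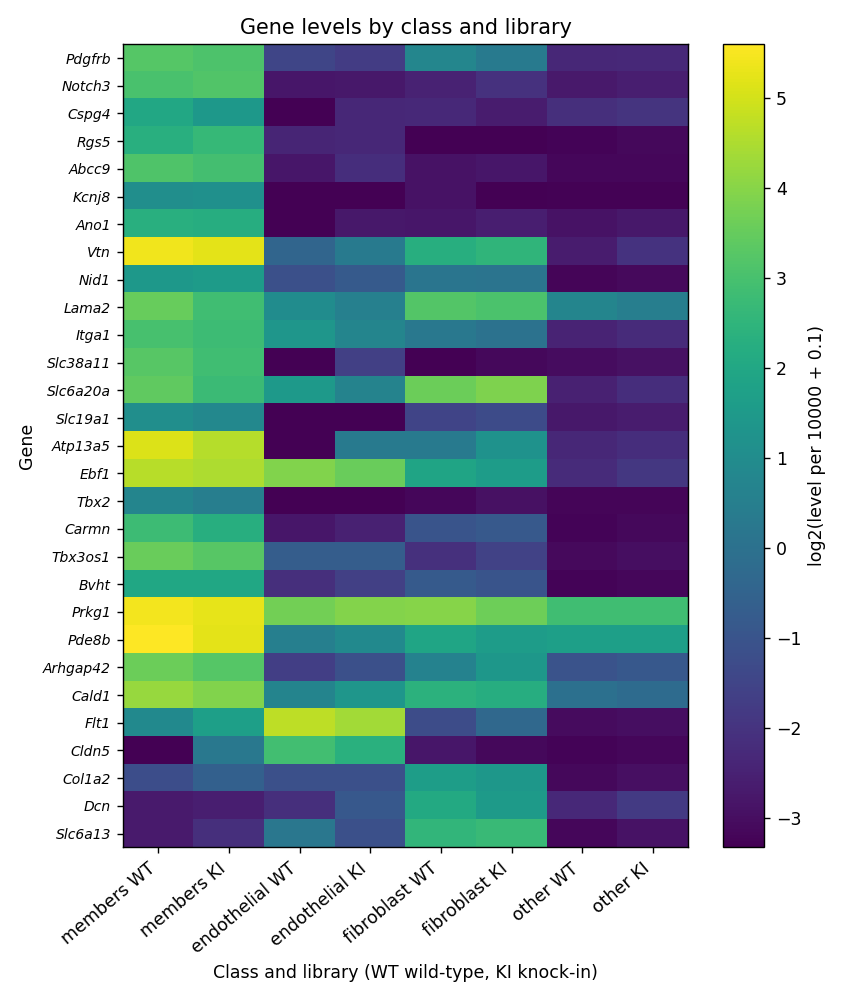
Level per 10000 of the genes named at the left, on a log2 scale with 0.1 added (colour), in members, endothelial-rule, fibroblast-rule and all other cells of the wild-type (WT) and knock-in (KI) libraries. Notch3, Rgs5, Abcc9 and Slc38a11 are high in both member columns and low elsewhere, whereas Lama2 and Slc6a20a are as high in fibroblast-rule cells and Ebf1 is also high in endothelial-rule cells.

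The members also differed among themselves in depth. In the 50 members with under 3000 detected genes, Vtn was at 43.9, Atp13a5 at 32.3 and Ebf1 at 26.6 per 10000. In the 10 with 3000 or more, they were at 20.7, 12.9 and 10.8. The level of the neuronal gene Snap25 was 2.56 and 3.14 per 10000 in the same sets. The pooled Rgs5 level was 5.13 in the 50 and 7.56 in the 10 members, 8 of which were knock-in cells. The 10 include the endothelial-marked knock-in member with an Rgs5 value of 54. Median Rgs5 values were 3 in the 50 and 2.5 in the 10 members, so no rise is read from the pooled level. Values of 1 made up 13.5% of the members' summed totals, and 322 genes were above 0 in all 50 members with fewer genes. A value of 1 in a member is therefore weak evidence of expression, and shares are given at 2 or more.

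Markers of other cell types were found in most members. At least 3 neuronal markers at 2 or more were present in 18 of 23 wild-type and 30 of 37 knock-in members. The endothelial-rule cells (76.7% and 83.7%) and fibroblast-rule cells (62.2% and 65.2%) carried neuronal markers at like shares, and the summed neuronal level in members was 36.7 and 36.5 per 10000. Astrocyte markers at that limit were in 6 and 11 members. Oligodendrocyte markers were in 2 and 9 members and microglial markers in 0 and 7. Of the remaining types, endothelial, oligodendrocyte precursor and erythrocyte markers passed in 0 wild-type and 1 knock-in member each, and fibroblast, macrophage, choroid plexus and ependymal markers in 0 members. The fibroblast markers include Dcn and Slc6a13, which the rule kept below 2 in members. The fibroblast count was thus limited in advance, and nothing is read from it. Counting any other type, 19 of 23 wild-type and 37 of 37 knock-in members passed at 2 or more, and 9 and 13 passed at 5 or more.

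For several other cell types the highest sums were in knock-in members. The summed level of 10 microglial markers ran from 0 to 5.24 per 10000 over wild-type members, with a median of 0, and from 0 to 48.3 over knock-in members, with a median of 2.75. In the wild-type members 5 of these markers, P2ry12, Csf1r, C1qb and Trem2 among them, were at 0. The sum of 12 endothelial markers ran from 0 to 8.96 in wild-type and from 0 to 200.4 per 10000 in knock-in members, with medians of 2.77 and 2.52. The value of 200.4 was a single knock-in member with 5426 detected genes, all 12 endothelial markers at 2 or more, 5 microglial markers and 7 rule genes. Its values were 65 for Flt1, 46 for Itm2a and 30 for Cldn5. Apart from that cell, every knock-in member stayed below the highest wild-type member for this sum. Oligodendrocyte precursor sums reached 8.02 in wild-type and 87.5 per 10000 in knock-in members, astrocyte sums 49.8 and 253.2, and oligodendrocyte sums 15.5 and 85.2. These highest sums came from few knock-in members. Below the astrocyte sum of 253.2 the next was 58.7. Below precursor sums of 87.5 and 79.4 the next was 9.78, and below oligodendrocyte sums of 85.2 and 75.2 it was 21.9. The wild-type and knock-in medians were 1.34 and 2.58 (precursor), 25.2 and 27.3 (astrocyte), and 5.23 and 7.82 (oligodendrocyte).

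**Figure D3:**
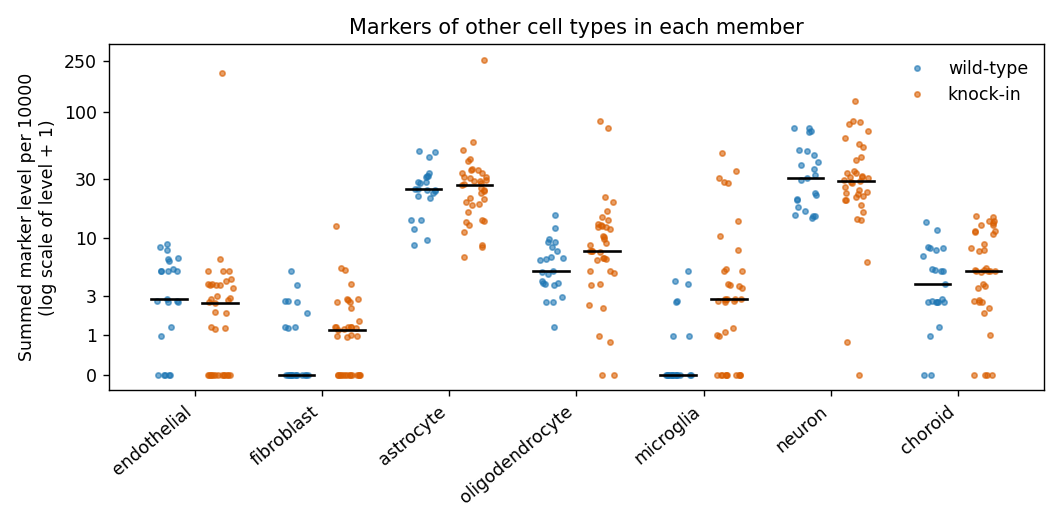
Summed level per 10000 of the markers of 7 other cell types in each member (vertical axis on a log scale of the level plus 1), wild-type in blue and knock-in in orange, black bars at the medians. Microglial and oligodendrocyte sums reach higher in knock-in members, neuronal sums have medians of 31.1 and 28.9 and highest values of 76.2 and 123.2, and 1 knock-in member stands at 200.4 for endothelial markers.

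The libraries were then compared within the pericyte-like cells. The study asked what the Pigv341E allele changes in the hippocampus. A gene met the limits when it had at least 1 per 10000 in the members of 1 library and was above 0 in at least 10% of them. It was past the size rule when the log2 ratio of knock-in to wild-type levels, with 0.1 added to both, was 1 or more in absolute size. The added 0.1 understates the change of low genes, and the rule carries no error rate. Of 2447 genes that met the limits, 285 (11.6%) were past the rule: 147 (6.01%) had the higher level in knock-in members and 138 (5.64%) the lower. Of the higher genes, 21 had at least 50% of their summed value in 1 cell, against 2 of the lower genes. The counts of listed genes that follow are read beside these shares.

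Members of both libraries were chosen for high values of the rule genes, so nothing is read from these: of 6 that met the limits 0 were past the size rule, with a median log2 ratio of -0.16 over 8. Of 17 further pericyte genes 0 were past it, with a median of -0.22. The median over all 7036 genes with at least 0.2 per 10000 was -0.01. Channels and pumps (20 genes), vasoactive signalling (21), matrix (17), transporters (9), contractile genes (6), PDGF signalling (5) and Notch signalling (3) also had 0 genes past the rule. Their medians were -0.16, -0.15, -0.29, -0.01, -0.34, 0.26 and -0.18. The 20 genes that led in members over other cells were taken from genes with at least 2 per 10000 in the members of both libraries. That floor leaves out genes near 0 in 1 library, so the count past the rule was limited in advance and nothing is read from it. Only Gm4804, a gene model, was past the rule, at 4.37 and 2.06 per 10000 (log2 ratio -1.05). In the knock-in members it ran from 0 through a median of 1 to 7, within the wild-type range of 0 through 2 to 18.

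The targeted gene was too low to check the labels. Pigv was above 0 in 1 wild-type member, at a value of 2, and in 0 knock-in members, and the edited base cannot be seen in these values. Of 28 genes of GPI anchor synthesis in the table, 1 met the limits (Pigk, of the transamidase that attaches the anchor, at 3.08 and 2.88 per 10000) and was not past the rule. Of 21 genes of GPI-anchored proteins that met the limits, 2 were higher past the rule. Gpc5, a glypican, was at 1.74 and 6.93 per 10000, but the median member had a value of 1 in both libraries and 1 knock-in member had 124. Among members with under 3000 detected genes its log2 ratio was -0.37. Prnp, the prion protein gene, was at 0.168 and 1.33, and at 2 or more in 1 of 23 and 12 of 37 members. Lsamp, an adhesion protein, was at 38.1 and 44.6, Gpc6 at 13.3 and 15.5 and Gpc3 at 2.74 and 2.12. The list's median log2 ratio was -0.02.

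Abl1 (chromosome 2, 31688376 to 31804227, plus strand) encodes a cytoskeletal tyrosine kinase and was lower in knock-in members. Its values were 4, 11 and 23 (lowest, median, highest) in wild-type and 0, 1 and 7 in knock-in members. All 23 wild-type members were at 2 or more, against 12 of 37 knock-in members (32.4%, exact interval 18.0 to 49.8%), and the ranges of the libraries met only between 4 and 7. The pooled level was 16.2 and 2.29 per 10000, a log2 ratio of -2.77. The same order was seen outside the members, at 9.80 and 2.21 in endothelial-rule, 13.2 and 2.09 in fibroblast-rule and 8.91 and 1.26 in all other cells. Abl2, the related kinase, was at 1.79 and 1.59 in members. Of 7 genes of the Eph, ephrin and Abl list that met the limits, 1 was higher (Ephb1, at 0.224 and 1.03 per 10000, with 1 knock-in member at 20, and -1.52 as log2 ratio without members that had 3 markers of another type at 5 or more) and 1 was lower (Abl1). Epha6, an Eph receptor, was at 5.93 and 8.95, and Epha7 at 3.19 and 2.59.

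Hdc (chromosome 2, 126593667 to 126619299, minus strand), the histamine-forming enzyme gene, separated the libraries almost fully. Its values were 0, 1 and 1 in wild-type and 1, 10 and 20 in knock-in members, at 1.18 and 13.5 per 10000 (log2 ratio 3.41). Gm14216 (chromosome 2, 154722352 to 154738451, minus strand), a noncoding gene, had values of 0, 1 and 1, and 2, 10 and 21, so its ranges did not overlap. Its level was 1.12 and 13.1 per 10000 (log2 ratio 3.44). Wild-type values of Hdc and Gm14216 were at most 1, and a value of 1 is weak evidence of expression. Their wild-type levels and the sizes of their ratios are therefore uncertain. Over the settings tried, the log2 ratio ran from 3.06 to 7.31 for Hdc and from 3.07 to 7.27 for Gm14216. Sec22b (chromosome 3, 97901190 to 97923276, plus strand), a vesicle transport gene, had values of 3, 19 and 42, and 1, 7 and 23, at 26.5 and 9.31 per 10000 (log2 ratio -1.50), with overlapping ranges. The same directions were seen outside the members: in all other cells Hdc was at 0.408 and 8.53, Gm14216 at 0.364 and 7.91 and Sec22b at 11.1 and 5.01 per 10000. Gm17660 was at 0.392 and 1.36 in members and 0.370 and 1.45 in all other cells.

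Other genes lower past the rule in knock-in members included Zfp12, Phlpp2, Eif4e and Thsd7a. Phlpp2, a phosphatase of Akt, was at 1.51 and 0.133 per 10000 in members, and at 0.542 and 0.569 in all other cells. It was at 2 or more in 11 of 23 and 0 of 37 members. Eif4e, the cap-binding translation factor, was at 2.18 and 0.398 in members and 1.00 and 1.04 in all other cells. Thsd7a was at 6.27 and 1.36, with values from 0 to 22 and 0 to 7, and at 2.71 and 2.16 in all other cells. Zfp12, a zinc finger gene, was at 1.79 and 0.0663 in members and also lower in all other cells, at 0.549 and 0.0924. The remaining genes of the 10 with the lowest ratios were Gm14296, Agap2, Ppcdc, Wdr37 and Caml, each at 2 per 10000 or less in both libraries. Whether the members' ratios differ from those of the other cells was not tested.

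**Figure D4:**
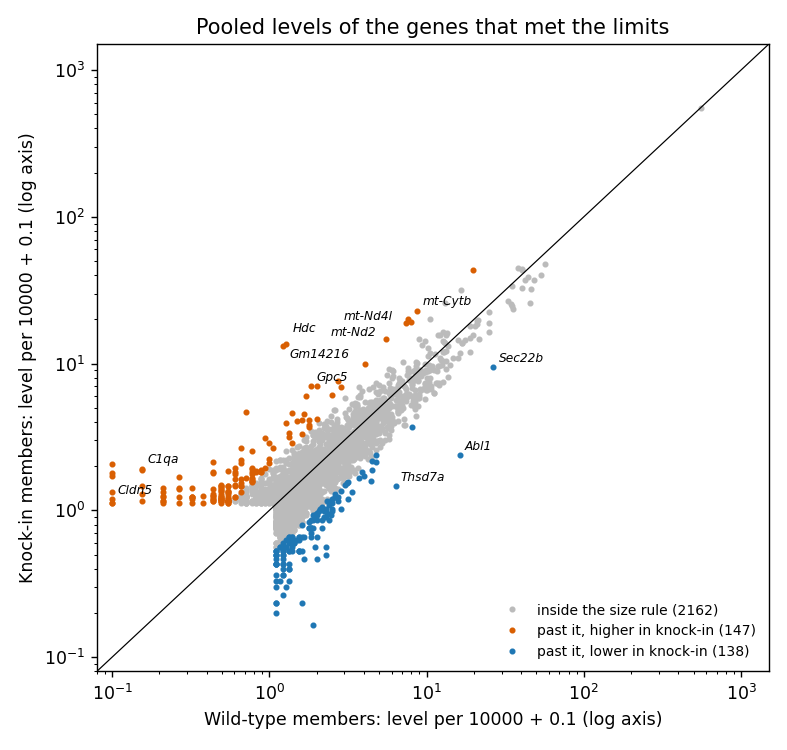
Pooled level plus 0.1 per 10000 in the 23 wild-type members (horizontal, log axis) and the 37 knock-in members (vertical, log axis) for the 2447 genes that met the limits; orange genes are past the size rule and higher in the knock-in library (147), blue genes lower (138), and grey genes inside it. Hdc and Gm14216 lie far above the line of equal levels and Abl1 and Sec22b below it; genes along the left edge are at or near 0 in the wild-type members.

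Several of the genes with the highest ratios are markers of other cells. The complement genes C1qa and C1qb, made by microglia, were at 0.0560 and 1.82, and listed at 0 and at 1.69 per 10000. They were at 2 or more in 13 and 12 knock-in members and in 0 wild-type members. Without the 7 knock-in members that carried microglial markers, C1qa was at 0.742 and C1qb at 0.577 per 10000 in the remaining 30. Both genes are among the markers that set those 7 members apart. Their lower levels in the remaining 30 were thus partly fixed by that choice, and nothing is read from them. In all other cells C1qa was at 3.25 and 4.22. The part of other cells' RNA in this difference was not tested.

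Endothelial genes in the same group drew much of their level from the single cell already described. Cldn5, of the tight junctions, and Itm2a were listed at 0 in wild-type and at 1.09 and 1.62 per 10000 in knock-in members. The chemokine gene Cxcl12 was at 0.0560 and 1.79. Without the member carrying endothelial markers they were at 0.104, 0.104 and 0.519 per 10000, all under the minimum level, and the log2 ratio of Cxcl12 was then 1.99. H2-K1, a class I histocompatibility gene, was listed at 0 in wild-type and at 1.03 in knock-in members, and at 0.831 without that member. Cnksr3 and BC031181 were listed at 0 in wild-type and at 1.96 and 1.23 per 10000 in knock-in members, and 1 cell held 89.8% of the summed Cnksr3 value. BC031181 was spread more widely, at 2 or more in 13 knock-in and 0 wild-type members, with at most 10.8% of its sum in 1 cell. Eng, an endothelial co-receptor of TGF-β, was the only 1 of 5 genes of TGF-β and BMP signalling past the rule, at 0.672 and 1.49. Without the member carrying endothelial markers it was at 1.07 in knock-in members (log2 ratio 0.60).

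The listed genes of the mitochondrial genome stood together above their wild-type levels in knock-in members. All 8 of the listed mitochondrially encoded genes that met the limits were past the rule in that direction, beside 6.01% of all genes. The list's median log2 ratio was 1.40. The mitochondrial gene mt-Rnr1, outside the list, was also higher past the rule, at 0.560 and 2.55 per 10000. mt-Cytb, a subunit of respiratory complex III, had values of 1, 4 and 44 in wild-type and 1, 13 and 61 in knock-in members, at 8.62 and 22.8 per 10000. The complex I genes mt-Nd4l, mt-Nd2 and mt-Nd1 were at 7.28 and 18.7, 5.43 and 14.5, and 3.97 and 9.91. The ranges overlapped for each. mt-Co2 was listed at 0 in wild-type and at 1.03 in knock-in members, and in all other cells it was at 0.00597 and 0.481. Without the member with endothelial markers, mt-Co2 was at 0.900 per 10000 in knock-in members and so under the minimum level of 1, with wild-type members still at 0, and the log2 ratios of mt-Co1 and mt-Nd5 were 0.91 and 0.87, inside the size rule.

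Per cell, mitochondrially encoded values made up 0.0388 to 1.39% of the total in wild-type members (median 0.238%) and 0.0691 to 2.16% in knock-in members (median 0.641%). In endothelial-rule cells the medians were 0.514% and 0.651%, in fibroblast-rule cells 0.250% and 0.421%, and in all other cells 0.120% and 0.209%. The knock-in library thus had the higher median in each class. Whether the gap in members exceeds that of other cells was not tested.

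Ribosomal protein genes were also higher. Of 12 that met the limits 7 were higher past the rule and 0 lower, and the median log2 ratio over 66 was 1.04. Without the member with endothelial markers that median was 0.62. The median share of ribosomal protein values per member was 0.204% in wild-type and 0.335% in knock-in members, and 0.131% and 0.203% in all other cells. Of 2 immediate early or stress genes that met the limits, 1 was higher past the rule: Jund, a subunit of AP-1, at 0.336 and 1.16 per 10000, was at 2 or more in 2 of 23 and 13 of 37 members. Its log2 ratio was 1.53, and 0.42 without members that had 3 markers of another type at 5 or more. How RNA quality or dissociation bears on these groups was not tested.

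**Figure D5:**
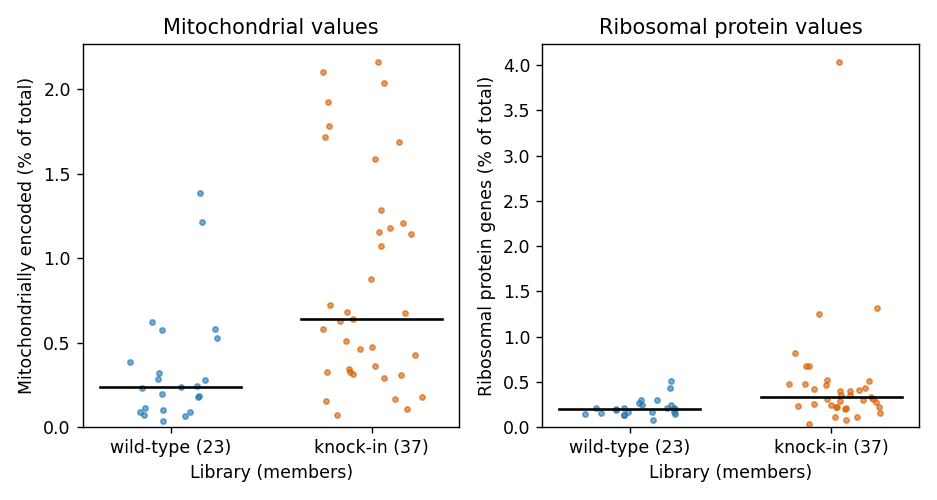
Percent of each member's total held by mitochondrially encoded genes (left) and ribosomal protein genes (right), wild-type (23 members) and knock-in (37 members), with black bars at the medians. The medians are 0.238% and 0.641% on the left and 0.204% and 0.335% on the right, and the points of the libraries overlap in both panels.

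Of the 16 listed transcription factor genes that met the limits, 1 was higher past the rule. Tcf7l2, an effector of Wnt signalling, was at 1.57 and 4.41 per 10000, with a median value of 0 in both libraries and 1 knock-in member at 95. Ebf1 was at 24.7 and 22.3, Tcf4 at 20.9 and 19.4, and Mef2c, a factor of muscle genes, at 5.71 and 5.30. Among Wnt, angiopoietin and VEGF genes, 0 of 3 were past the rule. The VEGF receptor gene Flt1 was at 1.79 and 3.18 per 10000, at 2 or more in 10 members of each library, and its highest value, 65, was in the knock-in member with endothelial markers.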

How the data were processed

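Cells of 1 pooled wild-type and 1 pooled knock-in hippocampal library (10x Genomics Chromium v3, per the labels' protocols) were analysed. The table the authors deposited holds 30223 gene symbols and 15930 cells. Its values, whole numbers of 0 or more with totals of 4846 to 14501 per cell, are treated as a score that the authors had corrected for depth, going by the name of the deposited table, and the submitters' processing notes name Seurat 3.0.0 and GRCm38. The aligner, cell filter, strand setting and any doublet removal are not given in the sources used here, and no doublet caller was run. Sequencing depth is thus unknown, so no count model, Poisson interval or test was used; a log2 ratio describes 2 libraries.

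Intervals of shares are exact Clopper-Pearson 95% intervals, for counting error only, and a count of 0 was read with a floor of 3 counts. Endothelial-rule and fibroblast-rule cells had at least 3 markers of that type at 2 or more. The members, markers and gene lists were chosen with earlier results of these data known. Genes named are the rule genes, the 20 leading in members, the 10 highest and the 10 lowest ratios past the size rule, the up to 8 highest genes of each list and genes noted in the series before; genes of a contractile subset were planned, but the subset was empty. Gucy1a1, Gucy1b1, Prnp, Gpc3, Tbx2 and the markers of other cell types stand in the lists but outside that rule, and were named after their values were seen. Positions are GENCODE M21 matched by symbol, and promoters are RefSeq on GRCm38.p6. Scripts (Python 3.11.15, numpy 2.4.6, scipy 1.17.1, matplotlib 3.10.9) were tested on simulated data. Alternatives changed the rule, the added constant, the limits on level and the members kept.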

Additional observations from a re-analysis of the deposited data

How the results depend on the processing

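With 2 rule genes in place of 3, the share of members was 0.578% in wild type and 0.622% in knock-in. Leaving out members with 3 markers of another type at 2 or more left 0.0564% and 0% (4 and 0 cells), so the ratios were not run there, and leaving out those with such markers at 5 or more, a setting chosen after seeing the data, left 0.197% and 0.272%. Against the 285 genes past the size rule (51.6% of them higher), adding 0.5 gave 129, 78 higher and 51 lower (60.5% higher). Setting values of 1 to 0 gave 474, 271 of them higher. Leaving out members with other markers at 5 or more gave 483, 283 of them lower (41.4% higher), and 72 of the 147 higher and 101 of the 138 lower genes were shared with it. With members of under 3000 detected genes only, also chosen later, 43.7% of calls were higher. A minimum level of 0.5 gave 823, 462 higher and 361 lower, and no minimum gave 3164, 1972 higher and 1192 lower (62.3% higher). The median log2 ratio of GPI-anchored genes was 0.42 without members with other markers at 5 or more. That of microglial markers, 1.85, was 0.83 with 0.5 added and 0.87 without those members. That of ribosomal protein genes, 1.04, was 0.64 with 0.5 added, 0.77 without those members, 0.62 without the endothelial-marked member (chosen later) and 0.77 with members of under 3000 genes. Ephb1 turned to -1.52 without members with other markers at 5 or more, and Gpc5 to -0.37 with members of under 3000 genes, and the cause was not tested. Of 135 named genes 35 were past the rule, and 20 of them stayed past it under all 7 alternatives that changed any ratio (leaving out members with 2 contractile markers removed none), among them Abl1, Hdc, Gm14216, Sec22b, C1qa, C1qb, Phlpp2, Eif4e, Thsd7a, mt-Cytb and mt-Nd1. Leaving out the 7 knock-in members with microglial markers was not among these alternatives. Without those members C1qa and C1qb were at 0.742 and 0.577 per 10000 in knock-in, under the minimum level of 1. No paired analysis was possible because each genotype has 1 pooled library.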

Other observations

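The highest Acta2 and Myh11 values of the table were in 1 cell that was not a member. It was a knock-in cell with a total of 7790 and 2396 detected genes, and it was outside the members because only Acta2 and Myh11 of the rule genes were at 2 or more. Its values were 35 for Acta2, 12 for Myh11, 18 for the tropomyosin gene Tpm1, 15 for Carmn and 12 for the actin crosslinker gene Actn1, while Tagln was at 1 and Cnn1 at 0. Notch3 and Ebf1, also found in the members, were at 5 and 22. Pdgfrb, Rgs5, Vtn, Abcc9, Kcnj8 and Atp13a5 were all at 0 in this cell. With 1 such cell, no level or share of smooth muscle cells was compared.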
